A study of Mus musculus with 15 samples.

Results

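The genes described here are 10 genes of the response to endoplasmic reticulum (ER) stress and amino acid shortage: Atf4, Ddit3, Atf3, Trib3, Chac1, Asns, Sesn2, Hspa5, Xbp1 and Herpud1. They were chosen by symbol, as 10 of the 56832 genes in a table of RNA-sequencing read counts, and all 10 were among the 17204 genes that passed a filter on low counts. The libraries came from cultured bone marrow mesenchymal stromal cells (MSCs) of 16 week old mice, either TauT+/+ or with global loss of the taurine transporter TauT (TauT-/-), which Slc6a6 encodes. All mice were on the C57BL/6J background, and cells of both genotypes grew in the same medium on collagen at low oxygen, were sorted or depleted for CD45-, Ter119- and CD31- cells (selected against blood, erythroid and endothelial cells) and received no treatment. The labels give 4 male TauT+/+, 4 male TauT-/-, 3 female TauT+/+ and 4 female TauT-/- libraries, named below by label and number. The deletion is present in every cell type of the TauT-/- mice. The labels do not tie a library to an animal or culture, so p measures the spread between these libraries, which may be technical.

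Cells that accumulate unfolded protein in the ER, or run short of an amino acid, phosphorylate the translation factor eIF2. General translation then falls while the mRNA of the transcription factor ATF4 is translated more, and ATF4 with its partner CHOP (the product of Ddit3) switches on genes for amino acid synthesis and for the feedback and death arms of the response. Unfolded protein also activates the ER sensors IRE1 and ATF6, which raise chaperones such as BiP (Hspa5) through spliced XBP1 and cleaved ATF6. Control of ATF4 by translation and of XBP1 by splicing leaves no trace in counts per gene. MSCs secrete large amounts of collagen and depend on this folding machinery.

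Total counts ranged from 69764291 to 101575071 in male-labelled libraries and from 12761107 to 20781070 in female-labelled libraries, so depth and sex label cannot be told apart. Slc6a6 itself went from 592 to 2591 CPM (read counts scaled to the size of each library) in TauT+/+ libraries and from 401 to 1521 in TauT-/- libraries, so the genotypes overlapped (log2 fold change -0.97, SE 0.36, edgeR adjusted p = 0.125). Which exons the deletion removes was not given in the sources used here. Sex-linked genes went against the label in 3 libraries, labelled TauT+/+ male 1, TauT-/- male 1 and TauT+/+ female 3. The libraries numbered 1 of each genotype were near-identical under both sex labels, with a spread of the log2 ratio of counts of 0.104 for TauT-/- and 0.115 for TauT+/+, where counting error alone gives 0.0601 and 0.0627 and the next closest pair had 0.289. The genotype comparison was therefore also computed with 13 libraries (1 of each such pair left out). Both it and the correlations were also computed with 12 libraries (the 3 against their label left out). The main correlations averaged each near-identical pair into 1 point. Stromal markers summed to 19920 to 37629 CPM in TauT+/+ and 4711 to 26896 CPM in TauT-/- libraries, and all 10 of them were tested. Most of that sum was Cxcl12 (mean of 12120 CPM in TauT+/+ and 4437 CPM in TauT-/- libraries) and Col1a1 (12883 and 8043 CPM). Estimates were below 0 for 8 of the 10, and above 0 for Cd44 (183 and 306 CPM) and Itgb1 (1461 and 1627 CPM). Of 18 macrophage markers, which selection against CD45 should reduce, all were tested and their sum was 1364 to 9491 CPM in TauT+/+ and 6486 to 20181 CPM in TauT-/- libraries. Lyz2 was the largest part of it (mean of 3900 CPM in TauT+/+ and 7700 CPM in TauT-/- libraries). In bulk samples fewer cells of a type and less RNA per cell cannot be told apart.

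The sites where these genes carry known response motifs are shown before the levels, so that both can be set side by side. RefSeq promoters (GRCm38.p6 table, 250 bases before to 50 after each start site) were found for all 10 genes, and each matched 1 place in GRCm39 exactly. The core of the amino acid response element, TGATGNAA on either strand, which ATF4 and C/EBP factors bind, occurred in 5 of the 10 promoters and in 3.97% of 32851 promoters. The ER stress element, CCAAT and CCACG 9 bases apart, which binds NF-Y and ATF6, occurred in Hspa5 and in 0.119% of all promoters. The second ER stress element, ATTGG and CCACG 1 base apart, occurred in Herpud1 and in 0.0365% of all promoters. The core of the unfolded protein response element, TGACGTGG, occurred in none of the 10 and in 0.676% of all promoters. Each site is given 5′ to 3′ on the strand of its gene in 30 bases, with the motif in capitals.
Trib3, amino acid response element, 15 bases after the start site, exon of Trib3, chr2:152185948-152185977, minus strand: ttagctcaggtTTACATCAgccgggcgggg
Chac1, amino acid response element, 193 bases before the start site, exon of a longer Chac1 transcript, chr2:119181519-119181548, plus strand: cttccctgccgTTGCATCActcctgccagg
Asns, amino acid response element, 23 bases before the start site, exon of a longer Asns transcript, chr6:7693214-7693243, minus strand: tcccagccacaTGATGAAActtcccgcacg
Atf3, amino acid response element, 110 bases before the start site, intron of a longer Atf3 transcript, chr1:190915622-190915651, minus strand: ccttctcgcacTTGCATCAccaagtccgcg
Herpud1, amino acid response element, 112 bases before the start site, intron of the antisense RNA gene Gm15890, chr8:95112934-95112963, plus strand: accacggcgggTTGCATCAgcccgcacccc
Herpud1, second ER stress element, 52 bases before the start site, chr8:95112996-95113025, plus strand: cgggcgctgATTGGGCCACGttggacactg
Hspa5, ER stress element, 65 bases before the start site, exon of a longer Hspa5 transcript, chr2:34662032-34662061, plus strand: cttcaCCAATCGGAGGCCTCCACGacgggg
The 8-letter cores differ in their free base and strand. Trib3, Chac1, Atf3 and Herpud1 hold the reverse complement, and only Asns among the 5 holds it in the orientation named. None of these letters were found in the windows of Atf4, Ddit3, Xbp1 and Sesn2, which says nothing of sites outside those windows. A match describes the sequence only.

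None of the 10 genes differed between the genotypes at the threshold, while single libraries differed by up to 57.8-fold. With edgeR's quasi-likelihood test over 15 libraries, with sex label and genotype in the model, 0 of 10 genes had an adjusted p under 0.05 (lowest 0.188, highest 0.977), against 1.30% of all genes tested. At an unadjusted p under 0.05 there was 1 of 10, Xbp1, against 23.6% of all genes. DESeq2 also called 0 of 10, where it called 11.6% of all genes, and left 1, Atf3, without an adjusted p, while voom called 0 of 10, where it called 7.67% of all genes. Each of these tools gave 1 of 10 at an unadjusted p under 0.05. Estimates were above 0 for 9 of the 10 (median of 0.23 on the log2 scale), beside a median of -0.02 over all genes tested, of which 48.3% had an estimate above 0. Without the library TauT-/- female 4, and likewise with voom, 5 of the 10 were above 0. With a replicate block, which treats equal numbers within a sex label as pairs, 4 of the 10 were. The fits with 13 and 12 libraries called 0 of 10 too, with lowest adjusted edgeR p of 0.189, 0.194 and 0.243. Over all genes these fits called only 2 of 14360, 7 of 17552 and 0 of 16211, so their 0 of 10 says little about the members. In each gene the genotypes overlapped, and the fold changes below are TauT-/- minus TauT+/+ on the log2 scale.

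**Figure D1:**
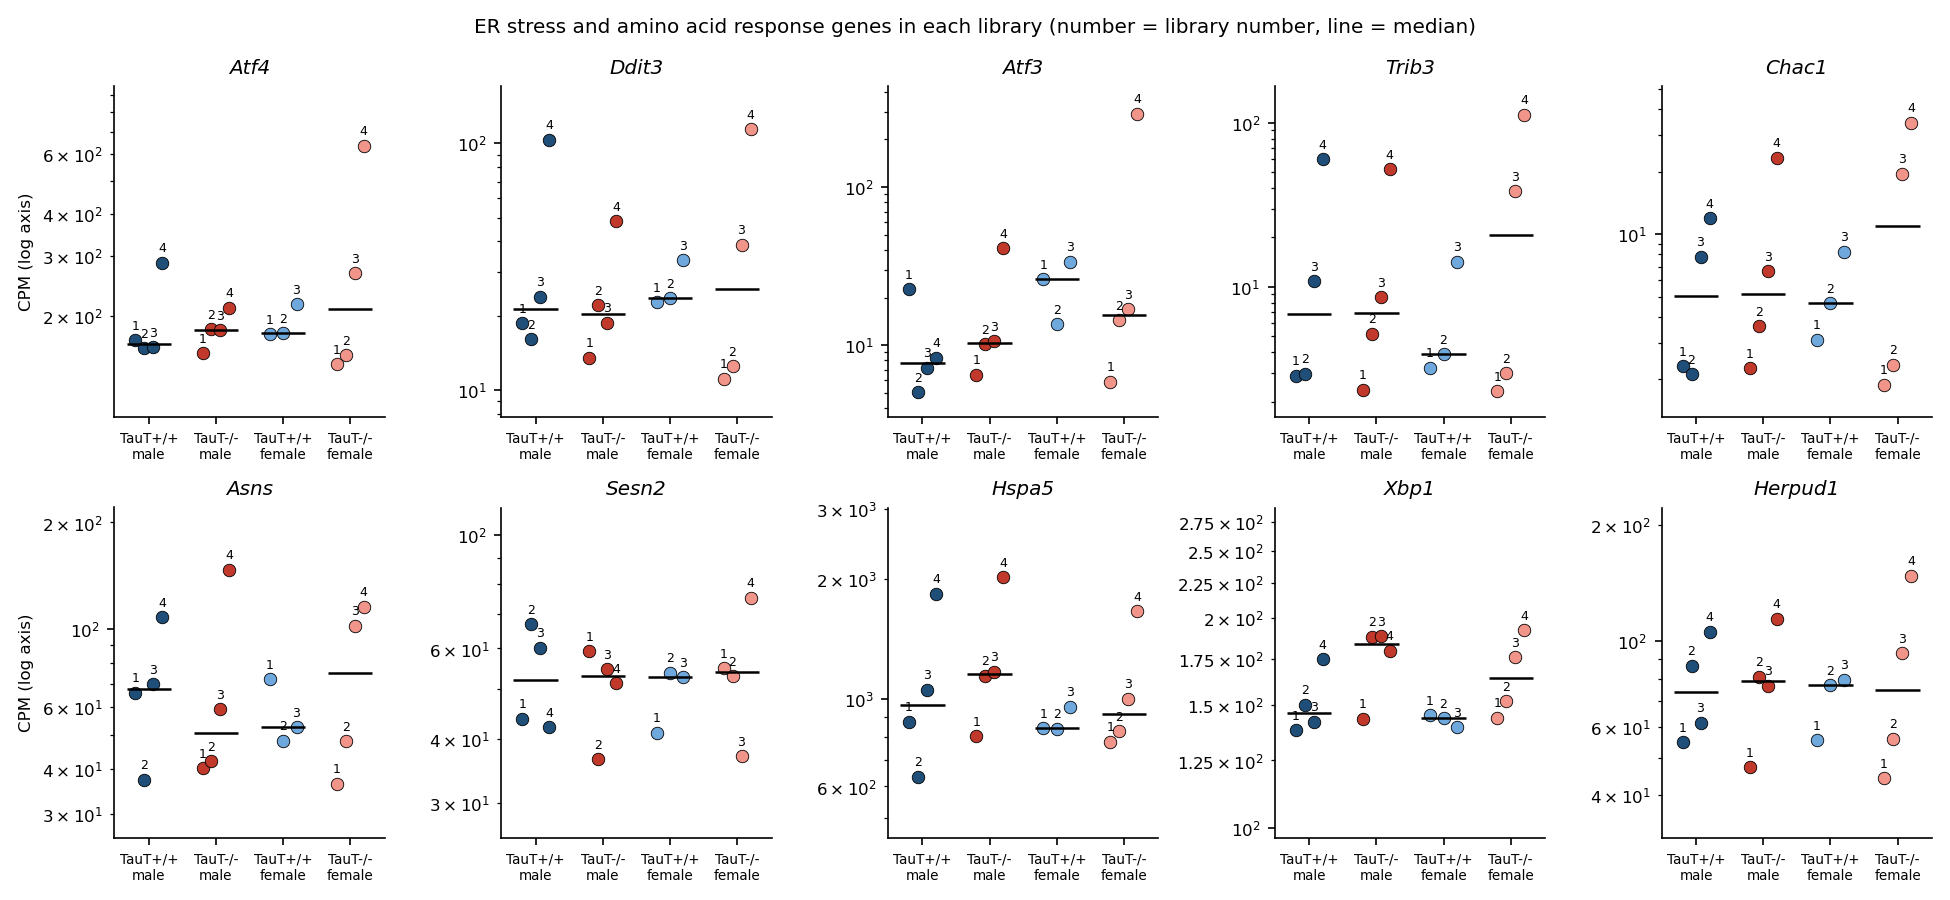
Level of each of the 10 genes in CPM on a log axis, with 1 point per library, its number beside it and a line at the median of each labelled group. For most genes library 4 of a group lies highest, up to 112 CPM of Trib3 and 290 CPM of Atf3 in the library labelled TauT-/- female 4, and the genotypes overlap in every panel.

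Atf4 (ENSMUSG00000042406, chr15:80139372-80141745, plus strand, GRCm39 as for all positions below) encodes the factor at the head of the amino acid arm. In TauT+/+ cells Atf4 stood at 170, 160, 161 and 287 CPM in male 1 to 4 and at 176, 178 and 216 CPM in female 1 to 3. In TauT-/- cells it stood at 155, 183, 181 and 212 CPM in male 1 to 4 and at 144, 153, 267 and 637 CPM in female 1 to 4. All but 4 libraries therefore lay between 144 and 212 CPM, and 1 library of each genotype, TauT+/+ male 4 and TauT-/- female 4, was far above the rest of its group. The mean was 193 ± 45.7 CPM (SD, n = 7) for wild type and 241 ± 165 CPM (SD, n = 8) for knockout libraries, a log2 fold change of 0.25 (SE 0.30, edgeR adjusted p = 0.642, 95% interval -0.39 to 0.89). Without the library TauT-/- female 4 it was -0.06, and without TauT+/+ male 4 it was 0.41.

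Ddit3 (ENSMUSG00000025408, chr10:127124268-127132163, plus strand) encodes CHOP, which drives the death arm of the response and induces Trib3 and Chac1. Levels in TauT+/+ cells were 18.7, 16.01, 23.9 and 104 CPM in male 1 to 4 and 22.7, 23.6 and 33.5 CPM in female 1 to 3. Levels in TauT-/- cells were 13.5, 22.0, 18.7 and 48.2 CPM in male 1 to 4 and 11.1, 12.5, 38.8 and 114 CPM in female 1 to 4. The highest library of each genotype was at nearly the same level, and the 3 lowest libraries of all were TauT-/-. Between genotypes the log2 fold change was -0.04 (SE 0.59, edgeR adjusted p = 0.977, 95% interval -1.30 to 1.22), so a change of 2-fold in either direction lies within the interval. It turned positive in 10 of 28 other settings, among them 0.56 without TauT+/+ male 4 and 0.07 with 12 libraries. Of the exon bases annotated to Ddit3, 64.1% are shared with Mars1 on the opposite strand, and a second same-strand model of Ddit3 shares 1.88%. How the counting resolved these is not given in the sources used here beyond its strand setting, so the level of Ddit3 is uncertain.

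Atf3 (ENSMUSG00000026628, chr1:190902493-190950241, minus strand), a stress-induced repressor and activator that ATF4 raises, had the largest estimate of the 10. Wild type cells (TauT+/+) gave 22.5, 5.03, 7.19 and 8.31 CPM in male 1 to 4 and 26.1, 13.5 and 33.8 CPM in female 1 to 3. Knockout cells (TauT-/-) gave 6.51, 10.2, 10.6 and 40.9 CPM in male 1 to 4 and 5.87, 14.3, 16.8 and 290 CPM in female 1 to 4. The library TauT-/- female 4 was 57.8-fold above the lowest library, TauT+/+ male 2, while the medians were 13.5 CPM in TauT+/+ and 12.5 CPM in TauT-/- libraries. The log2 fold change of 1.15 (SE 0.77, edgeR adjusted p = 0.377, 95% interval -0.49 to 2.79) rested on that 1 library, and was -0.03 without it. With 12 libraries it was 1.85 (edgeR adjusted p = 0.292).

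Trib3 (ENSMUSG00000032715, chr2:152179337-152191958, minus strand), a pseudokinase that ATF4 and CHOP induce and that holds ATF4 back, varied most among the 10 within a group. Levels in TauT+/+ cells were 2.87, 2.95, 10.8 and 60.1 CPM in male 1 to 4 and 3.22, 3.90 and 14.2 CPM in female 1 to 3. Levels in TauT-/- cells were 2.35, 5.19, 8.66 and 52.4 CPM in male 1 to 4 and 2.31, 2.98, 38.2 and 112 CPM in female 1 to 4. The lowest and the highest library were both TauT-/-, 48.5-fold apart, with 44 reads in the library with the fewest. Both near-identical pairs gave close values, 2.31 and 2.35 CPM for TauT-/- and 3.22 and 2.87 CPM for TauT+/+. The SD of log2(CPM + 0.5) within groups was 2.0, above that of 99.5% of all genes tested. Trib3 had a log2 fold change of 0.96 between genotypes (SE 1.11, edgeR adjusted p = 0.627, 95% interval -1.41 to 3.33) and became -0.12 in male-labelled libraries alone. It was 0.33 without TauT-/- male 4 or without TauT-/- female 4, and 2.02 without TauT+/+ male 4.

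Chac1 (ENSMUSG00000027313, chr2:119180757-119184866, plus strand), an enzyme that degrades glutathione and is induced by ATF4 and CHOP, lay in nearly the same order as Trib3. Wild type cells (TauT+/+) gave 2.32, 2.11, 7.82 and 11.97 CPM in male 1 to 4 and 3.10, 4.67 and 8.24 CPM in female 1 to 3. Knockout cells (TauT-/-) gave 2.27, 3.61, 6.67 and 23.4 CPM in male 1 to 4 and 1.89, 2.35, 19.7 and 34.6 CPM in female 1 to 4. The 3 highest libraries were TauT-/-, above every TauT+/+ library, and the lowest was TauT-/- as well. Its log2 fold change was 0.97 (SE 0.70, edgeR adjusted p = 0.420, 95% interval -0.53 to 2.46), and it stayed above 0 in all 28 other settings, between 0.20 and 1.49. Without TauT-/- male 4 it was 0.49.

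Asns (ENSMUSG00000029752, chr6:7671667-7728461, minus strand) encodes asparagine synthetase, the classic target of the amino acid response, and ranged from 37.4 to 108 CPM (median 65.9) in TauT+/+ and from 36.5 to 147 CPM (median 53.6) in TauT-/- libraries. Its 2 highest libraries, TauT-/- male 4 and TauT-/- female 4, lay above all TauT+/+ libraries, but the median was lower in TauT-/- libraries. Its log2 fold change was 0.20 (SE 0.34, edgeR adjusted p = 0.753) and was -0.06 without TauT-/- male 4. Sesn2 (ENSMUSG00000028893, chr4:132219335-132237815, minus strand) encodes a sestrin that senses leucine and restrains mTORC1, and also answers to p53. It ranged from 41.1 to 67.0 CPM (median 52.7) in TauT+/+ and from 36.5 to 75.4 CPM (median 53.9) in TauT-/- libraries, with a log2 fold change of 0.03 (SE 0.16, edgeR adjusted p = 0.927). Its 95% interval of -0.32 to 0.38 was the second narrowest of the 10, after that of Xbp1.

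Of the chaperone genes, Hspa5 (ENSMUSG00000026864, chr2:34661982-34668880, plus strand), which encodes BiP, the main ER member of the HSP70 family, was the most abundant of the 10. Levels in TauT+/+ cells were 874, 634, 1053 and 1840 CPM in male 1 to 4 and 842, 838 and 955 CPM in female 1 to 3. Levels in TauT-/- cells were 803, 1142, 1169 and 2022 CPM in male 1 to 4 and 778, 826, 999 and 1658 CPM in female 1 to 4. Library 4 stood above the others in each of the 3 groups that has one. The log2 fold change was 0.25 (SE 0.25, edgeR adjusted p = 0.577, 95% interval -0.30 to 0.79), above 0 in all 28 other settings, between 0.11 and 0.43. Of its exon bases 44.2% are shared with Rabepk on the opposite strand, and the kit was not stated to mark strand.

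Xbp1 (ENSMUSG00000020484, chr11:5470606-5483027, plus strand), whose mRNA IRE1 splices, was the steadiest of the 10 and the only one with an unadjusted p under 0.05. Wild type cells (TauT+/+) gave 138, 150, 142 and 174 CPM in male 1 to 4 and 145, 144 and 140 CPM in female 1 to 3. Knockout cells (TauT-/-) gave 143, 188, 188 and 180 CPM in male 1 to 4 and 144, 152, 176 and 192 CPM in female 1 to 4. Of the 8 TauT-/- libraries, 5 lay above every TauT+/+ library, 7 were above the TauT+/+ median, and none was below the lowest TauT+/+ library. For Xbp1 the log2 fold change was 0.21 (SE 0.09, edgeR adjusted p = 0.188, unadjusted p = 0.0389 in the same edgeR fit), with a 95% interval of 0.01 to 0.41. It lay between 0.18 and 0.29 in 28 other settings, with a lowest adjusted p of 0.101 with DESeq2, and was 0.26 (edgeR adjusted p = 0.243) with 12 libraries. The SD of Xbp1 within groups was 0.16 on the log2 scale, above that of 7.71% of genes tested, so the small estimate was large against its spread but failed the correction over all genes. Of its exon bases 22.0% are shared with Ccdc117 on the opposite strand.

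Herpud1 (ENSMUSG00000031770, chr8:95113022-95123141, plus strand) encodes an ER membrane protein of the degradation machinery and carries both kinds of motif. It ranged from 54.9 to 106 CPM (median 77.1) in TauT+/+ and from 44.3 to 148 CPM (median 78.9) in TauT-/- libraries, with TauT-/- libraries at both ends. The log2 fold change was 0.15 (SE 0.26, edgeR adjusted p = 0.758), and -0.03 without TauT-/- female 4. Levels between genes can be compared only per length. Per kilobase of annotated exon, Hspa5 had 181 ± 70.1 CPM (SD, n = 7) in TauT+/+ libraries, Atf4 81.1 ± 19.3, Xbp1 21.3 ± 1.80, Herpud1 19.2 ± 4.78, Sesn2 11.3 ± 2.16, Atf3 6.81 ± 4.49, Ddit3 6.20 ± 5.55, Asns 5.54 ± 1.94, Trib3 4.13 ± 6.14 and Chac1 2.22 ± 1.43. Neighbours from Atf3 down to Chac1, and Xbp1 and Herpud1, differed by less than their spread. The exon length of each gene pools the exons of all its annotated transcripts, which can lower its value on this scale. It was longest for Asns (11709 bases), Xbp1 (6931), Ddit3 (5579) and Hspa5 (5554), so the order of the genes is uncertain.

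**Figure D2:**
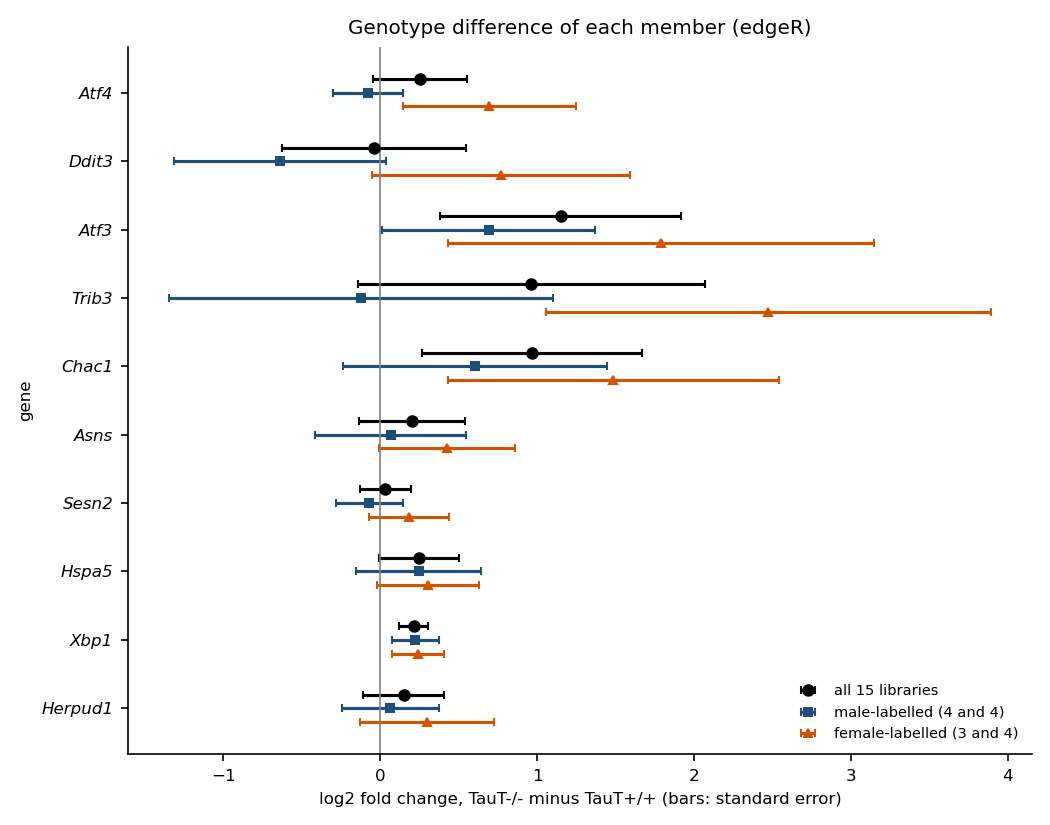
Log2 fold change of each gene, TauT-/- minus TauT+/+, from edgeR with bars of 1 standard error, for all 15 libraries (circles), male-labelled libraries (squares) and female-labelled libraries (triangles). Estimates over all 15 libraries run from -0.04 for Ddit3 to 1.15 for Atf3, and the female-labelled estimate lies to the right of the male-labelled one in each of the 10 genes.

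The genotype effect was estimated lower in male-labelled than in female-labelled libraries for all 10 genes, but a test of that difference called none. Trib3 had a log2 fold change of -0.12 (SE 1.22) in male-labelled and 2.47 (SE 1.42) in female-labelled libraries, a difference of -2.61 (SE 1.98). For Ddit3 the estimates were -0.64 (SE 0.67) and 0.77 (SE 0.82), and for Atf4 -0.08 (SE 0.22) and 0.69 (SE 0.55). Xbp1 and Hspa5 had nearly equal estimates under both labels, 0.22 and 0.24 for Xbp1 and 0.25 and 0.30 for Hspa5. The lowest unadjusted p of the difference among the 10 was 0.207 with edgeR and 0.129 with DESeq2, so 0 of 10 had an unadjusted edgeR p under 0.05, against 1.62% of 18263 genes, and both tools called 0 of 10. Over all genes edgeR called 0.00% in this test. The 10 genes are not independent of each other here, because the library TauT-/- female 4 was highest in 8 of them. The sex label also goes with depth and goes against sex-linked genes in 3 libraries.

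Most of these genes varied widely between libraries of one group. The SD of log2(CPM + 0.5) within labelled groups had a median of 0.64 over the 10 genes and 0.33 over all genes tested. Trib3 (2.0), Atf3 (1.48), Chac1 (1.41) and Ddit3 (1.11) lay above 99.5%, 97.8%, 97.2% and 94.0% of all genes, in the same order. Asns (0.71), Atf4 (0.57), Herpud1 (0.55) and Hspa5 (0.51) lay above 83.0%, 75.7%, 74.2% and 71.5%. Sesn2, at 0.33, was near the middle, and Xbp1 was among the steadiest. The most variable of the 10 were thus Ddit3, its targets and Atf3, and the least variable was Xbp1.

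**Figure D3:**
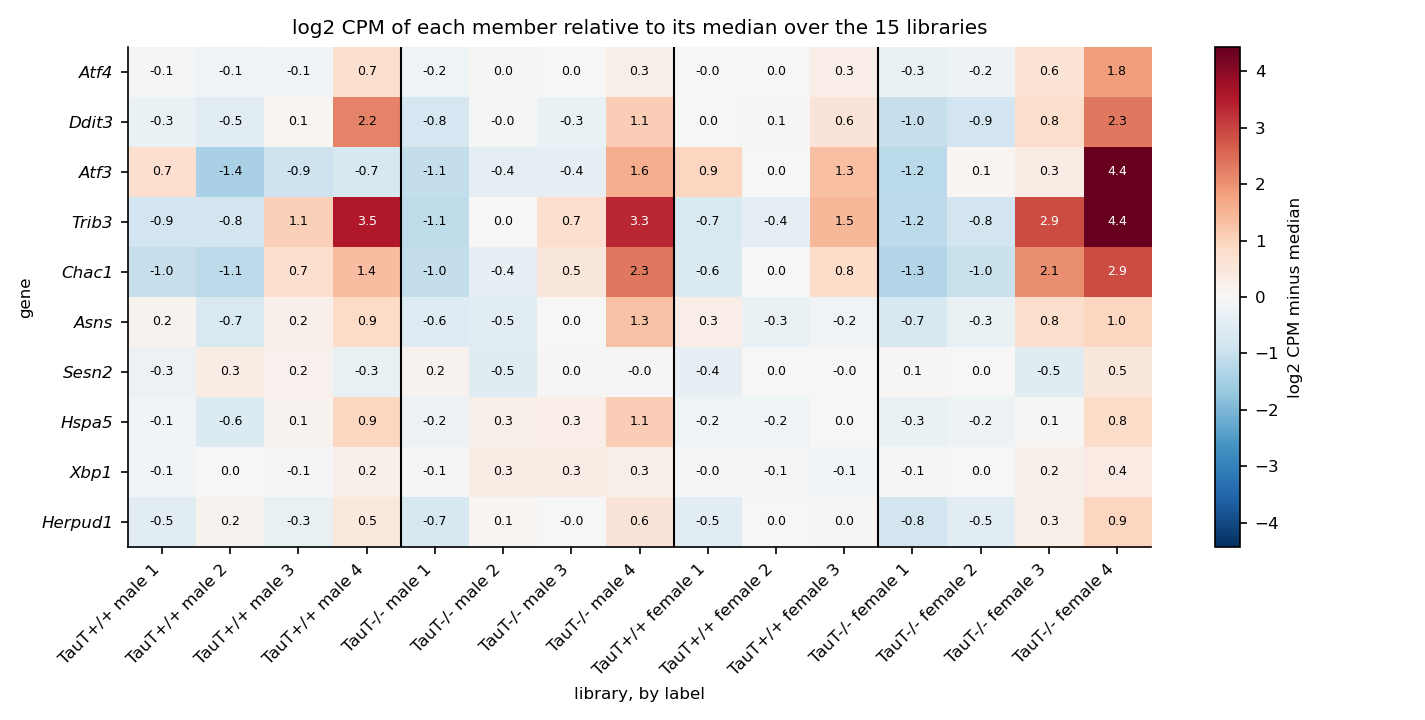
Log2 CPM of each gene minus its median over the 15 libraries, with libraries in columns by label, red above and blue below the median. Columns for library 4 of TauT+/+ male, TauT-/- male and TauT-/- female are red in nearly all rows, darkest for Atf3 and Trib3 in TauT-/- female 4, and the near-identical libraries numbered 1 have like columns within a genotype.

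The same libraries were high for most of the 10 genes. The library TauT-/- female 4 was highest in 8 genes and among the 3 highest in all 10. TauT-/- male 4 was among the 3 highest in 7 genes and TauT+/+ male 4 in 6. At the other end, TauT-/- female 1 was lowest in 6 genes and among the 3 lowest in 8. Its near-identical partner TauT-/- male 1 was lowest in 0 genes and among the 3 lowest in 8. High and low libraries were thus found in both genotypes, and the extremes at both ends were mostly TauT-/-. The library TauT-/- female 4 also had the highest sum of macrophage markers (20181 CPM), the lowest of stromal markers (4711 CPM) and the highest of endothelial markers (116 CPM). In the means over libraries, the endothelial sum was mostly Kdr and Vwf. TauT-/- male 4 had 15105 CPM of macrophage and 8527 CPM of stromal markers. TauT+/+ male 4 had 5217 CPM of macrophage and 22178 CPM of stromal markers, within the range of TauT+/+ libraries. Its levels were 104 CPM of Ddit3, 60.1 CPM of Trib3, 11.97 CPM of Chac1 and 8.31 CPM of Atf3. TauT-/- female 2 had 18661 CPM of macrophage markers and 2.98 CPM of Trib3. The part of cell makeup in these levels was not tested.

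Across libraries most of the 10 genes went up and down together, with Sesn2 apart. Pearson's r of log2(CPM + 0.5) was computed for the 45 pairs over 13 points, each near-identical pair averaged to 1 point, with a permutation test and Benjamini-Hochberg adjustment over the 45 pairs. Of these, 32 passed by r, all positive, and 19 passed by both r and Spearman's rho, with a median r of 0.67 (lowest -0.17, highest 0.97). Genotype was not removed from these values, so libraries of both genotypes form each relation.

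Trib3 and Chac1 were the closest pair, with r = 0.97 and rho = 0.98 (permutation adjusted p = 0.00015 for both, from the smallest p that the permutations can give, 1e-05). Without the 2 libraries farthest from the median of Trib3, TauT-/- female 4 and TauT+/+ male 4, r was 0.99. Within the 8 deep libraries r was 0.95 and within the 7 low-depth libraries 0.99. Ddit3 with Trib3 gave r = 0.94 and rho = 0.96 (permutation adjusted p = 0.00015 for both), and 0.91 without those same libraries. Atf4 mRNA with Trib3 was nearly as close, with r = 0.84 and rho = 0.92 (permutation adjusted p = 0.000337 and 0.000525), and 0.83 without them.

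Hspa5 and Herpud1 of the chaperone arm varied with Trib3 too, while none of the 9 pairs with Xbp1 passed by rank. Trib3 with Hspa5 gave r = 0.85 and rho = 0.87 (permutation adjusted p = 0.00124 and 0.00105), 0.77 without the 2 farthest libraries, 0.94 within deep and 0.92 within low-depth libraries. For Trib3 and Herpud1 the values were r = 0.85 and rho = 0.77 (permutation adjusted p = 0.0009 and 0.00876), and for Trib3 and Xbp1 r = 0.62 and rho = 0.45 (permutation adjusted p = 0.0414 and 0.194). Hspa5 with Xbp1 gave r = 0.69 and rho = 0.60 (permutation adjusted p = 0.0186 and 0.0631), and Hspa5 with Herpud1 gave r = 0.70 and rho = 0.63 (permutation adjusted p = 0.0164 and 0.0547), so neither passed by rank. Atf3 with Trib3 had r = 0.62 (permutation adjusted p = 0.0278) and rho = 0.55 (permutation adjusted p = 0.0921), and r was 0.15 without TauT-/- female 4 and TauT-/- male 4, so that relation rested on those libraries. Sesn2 with Trib3 gave r = 0.02 and rho = -0.19 (permutation adjusted p = 0.980 and 0.580), and none of the 9 pairs with Sesn2 passed. Of the other 36 pairs, 32 passed by r.

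**Figure D4:**
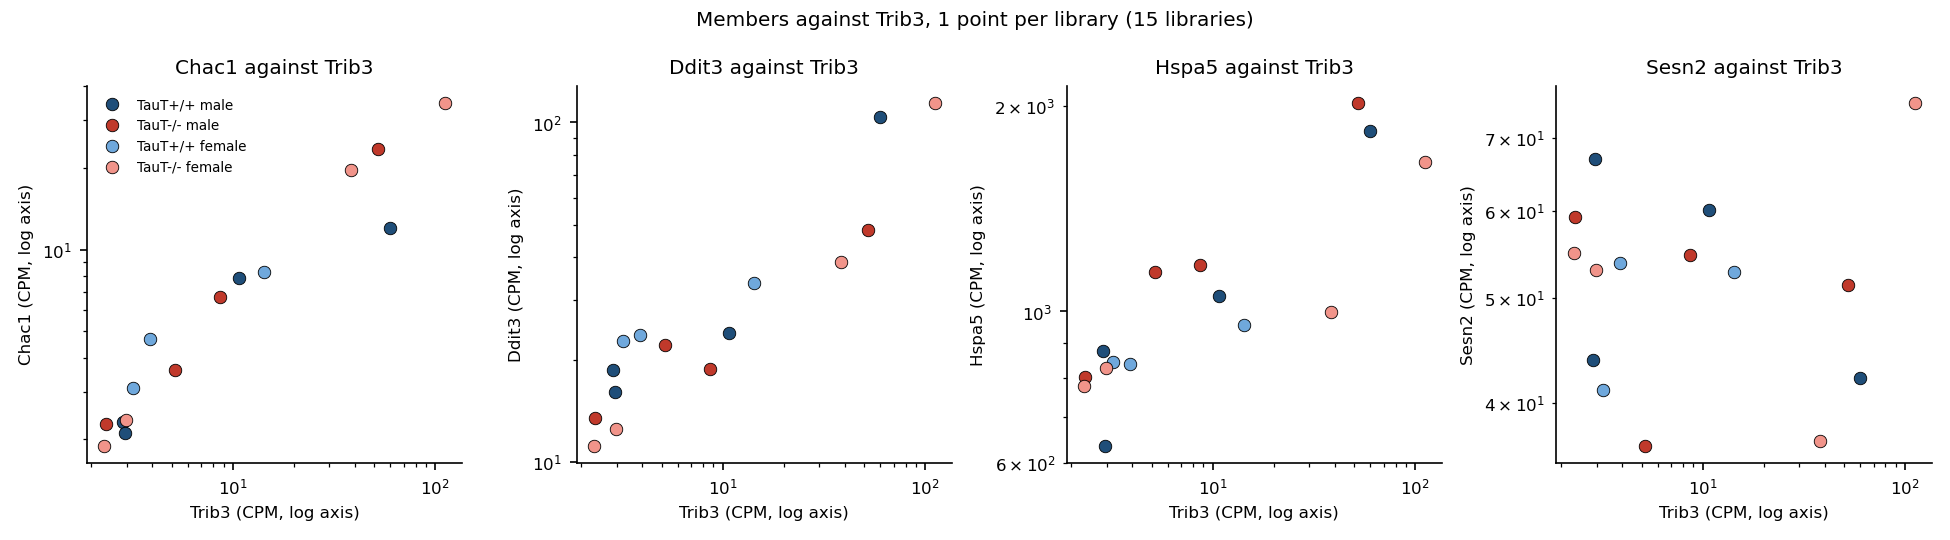
Chac1, Ddit3, Hspa5 and Sesn2 against Trib3 in CPM on log axes, with 1 point per library coloured by label. Chac1, Ddit3 and Hspa5 rise with Trib3 (r = 0.97, 0.94 and 0.85 over 13 points), libraries of both genotypes lie along the line, and Sesn2 shows no trend (r = 0.02).

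The genes most like the amino acid arm were sought over all 15 libraries, centred within sex label, among 13190 tested genes with a mean of at least 1 CPM. The pattern was the mean standardized log2 level of Ddit3, Trib3, Chac1, Asns and Sesn2. The 5 closest outside it were Ak4 (r = 0.94), an adenylate kinase of mitochondria, Gpt2 (0.94), a mitochondrial alanine aminotransferase, Hax1 (0.93), Nfe2l1 (0.92), a transcription factor anchored in the ER membrane, and Dnaja3 (0.92), a mitochondrial HSP40. Sesn2, though part of the pattern, had r = 0.24 with it. For the mean of Hspa5, Xbp1 and Herpud1 the 5 closest were Tmco4 (0.94), Rfxap (0.93), Sdf2l1 (0.92), an ER protein that works with BiP, Zfp511 (0.92) and Hax1 (0.92). The adjusted edgeR p of these 9 genes for genotype was 0.144 or higher. These r values are descriptions over libraries of which 2 pairs are near-identical, and were picked as the highest of 13190.

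Beyond the 10 genes, 125 genes of the same pathways were listed in 8 groups, and all were tested. None was called by edgeR in either direction, while 22 (17.6%) had an unadjusted p under 0.05, beside the 23.6% of all genes given above. DESeq2 called 9 higher in TauT-/- MSCs (7.2% of the 125, against 5.28% of all genes) and 1 lower (0.8%, against 6.31%), together 8.0% against 11.6%. voom called 2 higher (Fkbp2 and Spcs3) and 2 lower (Ppp1r15a and Slc1a5), all named after their values were seen, which is 3.2% of the 125 against 7.67% of all genes. The share called in either direction was thus under that of all genes with each tool, and the share called higher by DESeq2 was above it. Of the 125 estimates 91 were above 0, and their median on the log2 scale was 0.17. The summed level of each group was highest in TauT-/- female 4 or TauT-/- male 4, except translocation and transport (TauT-/- male 3). ATF4 partners and targets reached 3952 CPM in TauT-/- female 4, beside a TauT-/- median of 897 CPM. Serine, one-carbon and proline synthesis reached 1191 CPM in TauT-/- and 1114 CPM in TauT+/+ libraries. Sign counts of the groups without single libraries are not given here.

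Among 14 stress sensors and eIF2 regulators, 7 had estimates above 0 (median log2 fold change 0.05). The most abundant were Mbtps1, the protease that cleaves ATF6, with a mean of 179 ± 28.4 CPM for wild type (SD, n = 7, given first here and below) and 163 ± 31.9 CPM for knockout libraries (SD, n = 8), and Ppp1r15b, a phosphatase subunit that resets eIF2, with 135 ± 44.3 and 131 ± 23.9 CPM. Of 17 ATF4 partners and targets, 14 had estimates above 0 (median 0.43). Cebpb, a partner of ATF4 and CHOP, had 89.6 ± 24.3 and 149 ± 78.3 CPM (log2 fold change 0.70, SE 0.26, edgeR adjusted p = 0.122), and Ero1a, an oxidase that CHOP raises, 166 ± 117 and 550 ± 805 CPM (1.35, SE 0.76, edgeR adjusted p = 0.294). DESeq2 called Vldlr and Stc2 of this list, which were named after their values were seen.

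The enzymes of serine, one-carbon and proline synthesis had estimates above 0 in 8 of 9 genes (median 0.56), the highest median of the 8 groups. Shmt2, the mitochondrial serine hydroxymethyltransferase, had 96.5 ± 65.0 and 102 ± 38.7 CPM, and Aldh18a1, the first enzyme of proline synthesis, 82.7 ± 33.4 and 104 ± 41.1 CPM, and neither passed. Of 10 amino acid transporters 5 had estimates above 0 (median 0.25). Slc38a2, a carrier of small neutral amino acids, had 476 ± 227 and 397 ± 97.8 CPM, and Slc3a2, the heavy chain shared by several exchangers, 149 ± 27.6 and 266 ± 190 CPM (log2 fold change 0.74, SE 0.30, edgeR adjusted p = 0.159). DESeq2 called Slc7a1 higher and Slc1a5 lower, both named after their values were seen, so the transporters went both ways.

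Of 20 aminoacyl-tRNA synthetases, 18 had estimates above 0 (median 0.17), led in level by Nars with 207 ± 70.7 and 249 ± 70.1 CPM and Eprs with 198 ± 50.6 and 217 ± 59.6 CPM. DESeq2 called 1 of the 20 higher, Qars, named after its values were seen. The ER chaperones and folding enzymes were above 0 in 17 of 19 genes (median 0.22). P4hb, the main protein disulfide isomerase and a subunit of the collagen prolyl hydroxylase, had 1214 ± 271 and 1539 ± 252 CPM (log2 fold change 0.37, SE 0.14, edgeR adjusted p = 0.144), and Calr, the lectin chaperone calreticulin, 1040 ± 156 and 1331 ± 234 CPM (0.36, SE 0.13, edgeR adjusted p = 0.121). DESeq2 called these and Ero1b and Fkbp2, 4 of the 19, where it called 5.28% of all genes higher. Its adjusted p was 0.0398 for P4hb and 0.0219 for Calr. Ero1b and Fkbp2 were named after their values were seen.

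Of 17 genes of ER-associated degradation, 11 were above 0 (median 0.10), with Vcp, the ATPase that pulls proteins out of the ER, at 293 ± 61.6 and 278 ± 54.6 CPM, and Os9, a lectin, at 237 ± 32.0 and 258 ± 20.3 CPM. Of 19 genes of translocation and transport to the Golgi, 11 were above 0 (median 0.04), with Ssr3 at 424 ± 67.0 and 399 ± 65.8 CPM and Sec31a at 282 ± 57.2 and 256 ± 49.3 CPM. DESeq2 called 1 of these 19, Spcs3, named after its values were seen.

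For comparison, 13 cytosolic and mitochondrial heat shock proteins had 7 estimates above 0 and a median log2 fold change of 0.04. Hsp90ab1 had 1238 ± 201 and 1363 ± 244 CPM, and Hspa8 817 ± 156 and 1088 ± 198 CPM (log2 fold change 0.42, SE 0.16, edgeR adjusted p = 0.130), which DESeq2 called. The immediate early genes, which answer to serum and handling within minutes, lay the other way, with 11 of 12 below 0 and a median of -1.26. Egr1 had 642 ± 442 and 208 ± 88.9 CPM (log2 fold change -1.65, SE 0.56, edgeR adjusted p = 0.106), and Junb 456 ± 212 and 291 ± 134 CPM (-0.67, SE 0.34, edgeR adjusted p = 0.249). edgeR called 0 of these 12 and DESeq2 called 6 lower, while 7 had an unadjusted edgeR p under 0.05. Over all genes DESeq2 called 5.28% higher and 6.31% lower, and 23.6% had an unadjusted edgeR p under 0.05. Beside these values, 17 of 18 macrophage markers had estimates above 0 (median log2 fold change 0.90) and 8 of 10 stromal markers below 0 (median -0.63), and 1 macrophage marker, Cd68, was called by edgeR (1.46, edgeR adjusted p = 0.0445). DESeq2 called 7 of the 18 macrophage markers higher, and 12 had an unadjusted edgeR p under 0.05, beside the shares of all genes given above. Endothelial markers summed to 7.85 to 19.2 CPM in TauT+/+ and 11.7 to 116 CPM in TauT-/- libraries, with 5 of 6 tested estimates above 0. Of these, edgeR called 0 (2 at an unadjusted p under 0.05) and DESeq2 called 1, Kdr, named after its values were seen (log2 fold change 2.14, edgeR adjusted p = 0.0561, DESeq2 adjusted p = 0.000833). Most of the endothelial sum was Kdr (mean of 2.90 CPM in TauT+/+ and 16.1 CPM in TauT-/- libraries) and Vwf (7.91 and 21.5 CPM). Pecam1 (1.31 and 1.16 CPM, log2 fold change -0.19, SE 1.05) and Cdh5 (0.354 and 0.371 CPM, 0.09, SE 0.52) had estimates near 0. Vwf, Pecam1 and Cdh5 were also named after their values were seen. Of the markers of B and plasma cells 1 of 8 was tested, of neutrophils 2 of 7 and of erythroid cells 0 of 4, and Igkc and Hbb-bs were at 0 in every library. The part of these cell types in the pathway values was not tested.

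**Figure D5:**
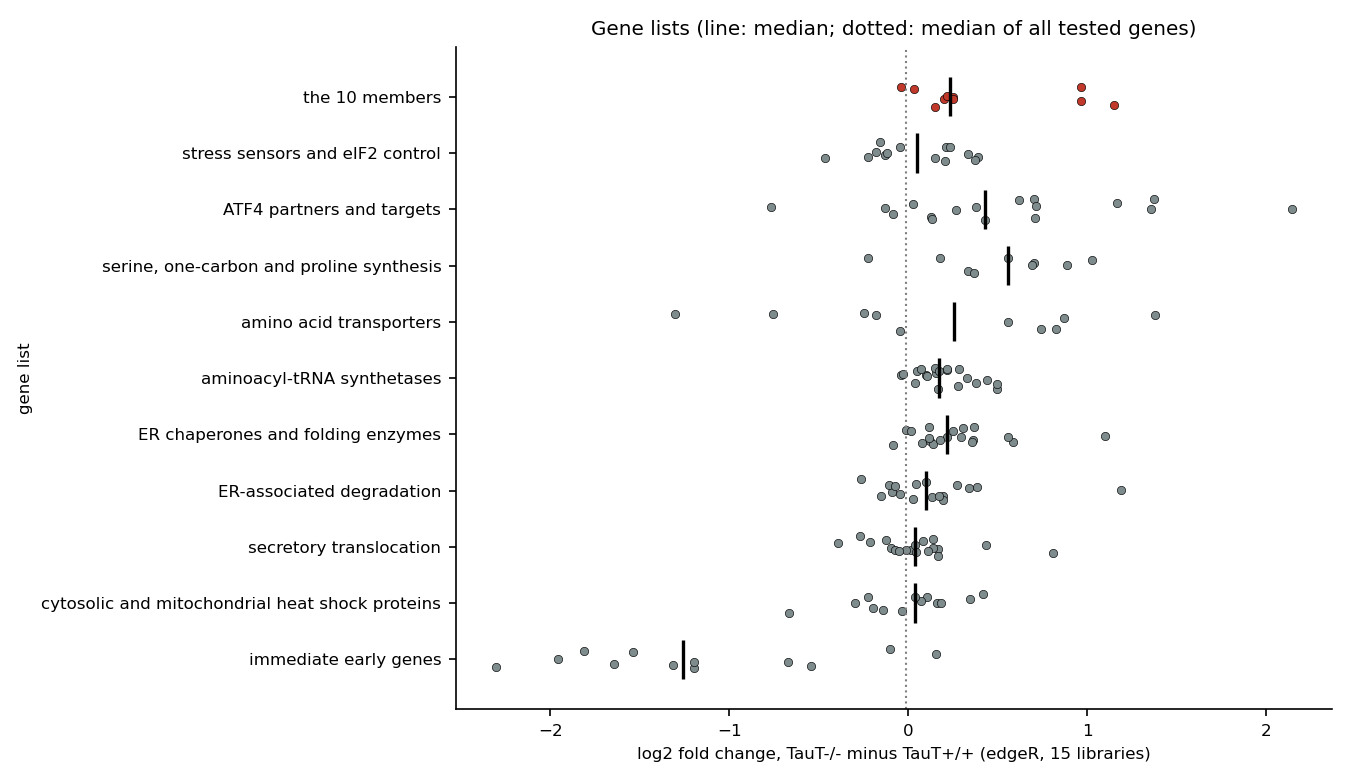
Log2 fold change, TauT-/- minus TauT+/+, of each tested gene in the 10 members, the 8 pathway lists and 2 comparison lists, with a line at each list's median and a dotted line at the median of all tested genes (-0.02). The medians of the pathway lists lie between 0.04 and 0.56, and the immediate early genes lie at -1.26.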

How the data were processed

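MSC RNA was amplified as full-length cDNA from the poly(A) tail and sequenced as paired reads. Per the paper's methods, the authors trimmed reads with fastp 0.23.1, mapped them with STAR 2.7.9a to GRCm39 with GENCODE M31 and made the deposited values, whole-number counts per gene, with featureCounts (Subread 2.0.1) set for reverse-stranded reads. The kit was not stated to mark strand. The authors' own result values (DESeq2 with sex and condition) were not used. The DESeq2 alternative below was fitted anew to the deposited counts with the same 2 terms.

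The 15 libraries' counts went into edgeR 4.0.16 under R 4.3.3 (TMM, filterByExpr, quasi-likelihood test, sex label and genotype, Benjamini-Hochberg over 17204 genes, threshold 0.05), with DESeq2 1.42.0 and voom of limma 3.58.1 as alternatives. CPM are counts scaled by TMM library size. 0 columns were left without a sample. Positions come from GENCODE M39 on GRCm39. Correlations used log2(CPM + 0.5) and 100000 permutations in SciPy 1.17.1. Ranges of total counts per sex label are given above, and the fewest reads behind a member's value were 36, for Chac1.

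The members and gene lists were chosen with earlier results of these data known. Beyond members, Slc6a6 and genes past the threshold, the genes named are the 2 most abundant per list and the 5 most correlated with each arm. On simulated counts for 17204 genes at these depths, edgeR called 46 of 100 genes changed 2-fold and 77 of 100 changed 4-fold, with 125 calls in all, of which 123 were changed genes. DESeq2 made 202 calls there, of which 154 were changed genes. The changed genes were drawn at random and the simulated libraries were independent. The 10 members had a median SD within groups of 0.64, against 0.33 over all genes, so these rates do not carry over to them. Other normalizations and filters, no sex term, a replicate block, subsets of libraries and leaving out each library in turn were alternatives.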

Additional observations from a re-analysis of the deposited data

Results flagged for a closer look

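Of the 30 sets of 4 libraries (10 genes in 3 labelled groups), 6 held a library far from the others on the CPM scale by Dixon's ratio, the gap to the nearest library over the group's whole range, compared with its 95% critical value. Chance gives about 1 in 20 such sets, 1.5 here, and sets of correlated genes are not independent. On the log2 scale 1 of the 30 passed. The library labelled TauT+/+ male 4 was far above its group for Atf4 (287 CPM beside 170 in the nearest library, ratio 0.927), for Ddit3 (104 beside 23.9 CPM, ratio 0.910) and for Trib3 (60.1 beside 10.8 CPM, ratio 0.862). The library labelled TauT-/- male 4 stood apart for Atf3 (40.9 beside 10.6 CPM, ratio 0.882) and for Trib3 (52.4 beside 8.66 CPM, ratio 0.874). The library labelled TauT-/- female 4 stood apart for Atf3 (290 beside 16.8 CPM, ratio 0.962).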

How the results depend on the processing

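No member was called in any of 28 other settings, but a count of 0 says little of stability where the lowest adjusted p of the 10 was 0.188. Some estimates changed sign, among them those of Trib3 and Atf3, which were 0.96 and 1.15 in the reported fit. The log2 fold change of Atf4 was -0.076 in male-labelled libraries, that of Trib3 -0.124 and that of Sesn2 -0.070. Ddit3 was at 0.011 with no sex term, 0.768 in female-labelled libraries, 0.051 with 13 libraries (female-labelled number 1 kept) and 0.071 with 12. Sesn2 was at -0.037 and -0.0040 with 13 libraries (female- and male-labelled number 1 kept) and -0.0044 with 12. With voom, Atf3 was at -0.083, Asns at -0.029, Sesn2 at -0.0087 and Herpud1 at -0.052. The cause was not tested.

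Leaving out 1 library at a time gave ranges of -0.060 to 0.41 for Atf4, -0.53 to 0.56 for Ddit3, -0.032 to 1.53 for Atf3, -0.059 to 0.36 for Asns, -0.056 to 0.10 for Sesn2 and -0.030 to 0.29 for Herpud1, 0.33 to 2.02 for Trib3, 0.49 to 1.29 for Chac1, 0.12 to 0.43 for Hspa5 and 0.18 to 0.29 for Xbp1. The sign of Atf4, Atf3, Sesn2 and Herpud1 turned without TauT-/- female 4 and that of Asns without TauT-/- male 4. Sesn2 also turned without TauT+/+ female 1, TauT+/+ male 1 or TauT+/+ male 4. Ddit3 turned positive without TauT-/- female 1 or 2, without TauT-/- male 1, 2 or 3, and without TauT+/+ male 4. Chac1, Hspa5 and Xbp1 kept theirs in all 28.

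Of the 125 pathway genes, 0 were called in either direction in the reported fit, 9 higher and 1 lower with DESeq2, 2 and 2 with voom, 1 higher with no sex term, and 0 to 3 higher and 0 to 1 lower when 1 library was left out. The 3 higher came without TauT+/+ male 3. Over all genes, edgeR's 94 higher and 129 lower became 952 and 1139 with DESeq2, 611 and 708 with voom, 195 and 276 with no sex term, 32 and 42 with no filter, 2 or 7 higher and 0 lower with 13 libraries, 0 with 12, and 8 to 476 and 4 to 779 when 1 library was left out. The count over all genes thus depends on the libraries and the tool.

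The labels do not say what a replicate number shares, and equal numbers were not taken to pair the libraries, since not every same-numbered pair deviated together. That does not show the libraries to be unpaired. Same-numbered deviations from group means correlated at 0.41, 0.073 and -0.007 for female-labelled numbers 1 to 3 and at 0.364, 0.272, 0.688 and 0.216 for male-labelled numbers 1 to 4, and 11 of 14 libraries correlated best with their own number. With a replicate block, 4 of the 10 members had an estimate above 0, 57 genes were higher and 75 lower over all genes and 1 pathway gene, Fkbp2, was higher, while Atf4 was at -0.037, Atf3 at -0.119, Asns at -0.027, Sesn2 at -0.032 and Herpud1 at -0.040.

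Of 45 pairs of members, 31 passed by r with a pseudocount of 0.1 CPM, 33 with all 15 libraries as points and 32 with 12. Depth limits Chac1 and Trib3 most, with 36 and 44 reads in their lowest libraries.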
